A study of Xenopus laevis with 15 samples.

Results

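Rod and cone phototransduction genes were followed in whole embryos of a frog, Xenopus laevis, after exposure to lead(II) nitrate. The genes were given as 38 symbols, and a count row was a member when the authors' symbol for it, without a final .L or .S, was one of them. That rule found 27 of the 37018 rows in the count table, covering 21 of the 38 symbols, with both copies of 6 genes and 1 copy of the other 15. The frog's genome carries related copies of many genes, called homeologs and marked .L and .S, and each copy was counted as a row of its own. By the cell that uses them, 12 rows were classed as rod, 9 as cone and 6 as both or other.

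The libraries fell into 3 groups of 5, each library a pool of 3 whole individuals. The embryos came from adults of an established colony that were induced to breed with human chorionic gonadotropin. The groups were lead 630 and lead 210, both lead(II) nitrate, and a water control. Embryos were placed in lead or water at 48 h, near stage 29 of the Nieuwkoop and Faber series, and stayed there for 96 h at 21 °C under a daily light and dark cycle, so all were sampled at 6 days. The levels carry no unit here because the labels state them in ng/L while the treatment protocol states µg/L. The labels do not name dishes or clutches, so the 5 pools of a group may share either, and p-values reflect only how these pools vary.

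Phototransduction is the chain of reactions by which a photoreceptor turns light into an electrical signal. Light activates an opsin, the opsin activates the G protein transducin, and transducin releases phosphodiesterase from its inhibitory subunit, so that cyclic GMP falls and cation channels in the outer segment close. Opsin kinases and arrestins end the response, guanylate cyclase and its activators restore cyclic GMP, and rods and cones use separate genes for most steps. Photoreceptors of the pineal organ also use several of these genes.

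All 27 rows were detected in all 15 libraries and passed the filter on low counts, with 12 reads for the lowest value (rp1.L) and 17997 for the highest (rho.L). Library totals ranged from 10.8 to 24.7 M counts (M, 1e+06), and 3 counts corresponded to 0.124 to 0.275 CPM (counts scaled to 1e+06 per library, on TMM-scaled library sizes). No transcript lengths were used, so levels are compared between libraries and not between genes. Whether the authors' counting shared or dropped reads of near-identical copies is not given in the sources used here, so values of single homeologs are uncertain.

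Some libraries stood apart across the rows. Relative to each row's mean over all 15 libraries, the median log2 CPM of the 27 rows was 0.27 in lead 630 D, 0.23 in lead 630 E and 0.31 in control E. In those libraries 25, 25 and 26 of the 27 rows lay above their own mean. At the other end, lead 210 A had a median of -0.26 with 2 rows above their mean, and lead 630 A had -0.16 with 3 rows above. The other 10 libraries lay between -0.14 and 0.10. Within each group the library lettered A was the lowest of the 5. The median over all genes tested stayed between -0.010 and 0.019 in every library.

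**Figure D1:**
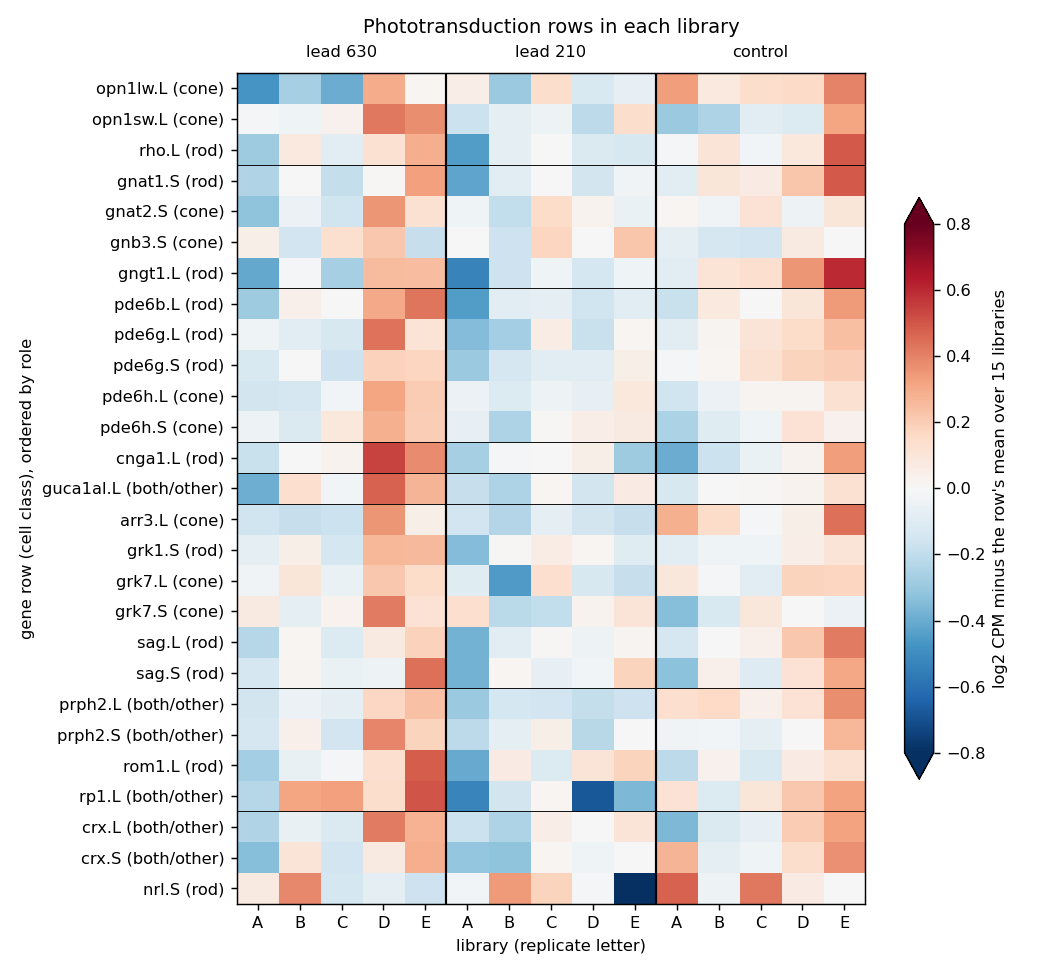
Log2 CPM of each phototransduction row (vertical, ordered by role, with cell class in brackets) in each of the 15 libraries (horizontal, by group and replicate letter), as the difference from the row's mean over all libraries; values beyond the colour scale take its end colours. Lead 630 D, lead 630 E and control E are mostly red, with 25, 25 and 26 of 27 rows above their mean, and lead 210 A is mostly blue, with 2 rows above.

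Lens genes also differed between the lettered libraries. The summed level of 23 lens rows in libraries A to E was 1285, 1335, 876, 858 and 597 CPM at lead 630, 1387, 1542, 1140.3, 1113 and 237 CPM at lead 210, and 1673, 1367, 1258.5, 811 and 868 CPM in controls. In each group libraries A and B had the highest lens sums and D and E the lowest, while A was lowest for the phototransduction rows. At lead 630 and in controls, D and E were the highest for those rows, and at lead 210 C and E were. How far the amount of eye tissue or the makeup of a pool contributed to differences between groups was not tested. In RNA of whole embryos, fewer photoreceptor cells and less RNA per cell cannot be told apart.

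At lead 630 the phototransduction rows showed no change past the threshold, an adjusted p under 0.05 from edgeR's quasi-likelihood test over 27060 genes. The count called was 0 of 27 with edgeR and 0 with DESeq2, against 2.28% of all genes tested with edgeR (1.98% higher and 0.303% lower). A single row, opn1lw.L, had an unadjusted p under 0.05 (3.70%, against 12.9% of all genes). The median log2 fold change was 0.04, with 15 rows positive and 12 negative, beside -0.0052 over all genes. All 27 intervals (95%) lay within 2-fold in either direction, and 25 lay within 1.5-fold.

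At lead 210 prph2.L was called, and it fell. That is 1 of 27 rows, against 1.9% of all genes called in either direction, 1.76% higher and 0.144% lower. A further 8 rows had an unadjusted p under 0.05, so that 9 of 27 did (33.3%, against 12.9% of all genes). The median log2 fold change was -0.21, beside -0.0021 over all genes, with 4 rows positive and 23 negative. All 12 rod rows had a negative estimate (median -0.22), though that of rom1.L was only -0.00014. The 9 cone rows split into 4 positive and 5 negative (median -0.03). Single libraries weighed on the rod estimates. Relative to the row means, the rod rows had a median of -0.38 in lead 210 A (others at lead 210 -0.08 to 0.0026). In control E it was 0.32 (other controls -0.09 to 0.11). A fit without both of these libraries was not made. The rows were measured in the same pools, and no test over the rows as a set was made. Both lead groups were compared with the same 5 controls. A fit with the replicate letter as a block called gngt1.L and gnat1.S at lead 210 as well. It called 691 of all genes there, beside 515 without the block, and the labels do not say what a letter marks.

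Between lead 630 and lead 210, 0 of 27 rows were called with edgeR, against 0% of all genes, and 0 with DESeq2, which called 6 of all genes. Groups without overlap were seen for 0 of 27 rows, against 0.65% of all genes. The estimate was positive in 25 rows and negative in 2, with a median of 0.14 beside 0.0039 over all genes. An unadjusted p under 0.05 was found for 3 rows (11.1%, against 4.66% of all genes): rp1.L, prph2.L and pde6b.L. The lowest adjusted p by edgeR was 0.932.

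**Figure D2:**
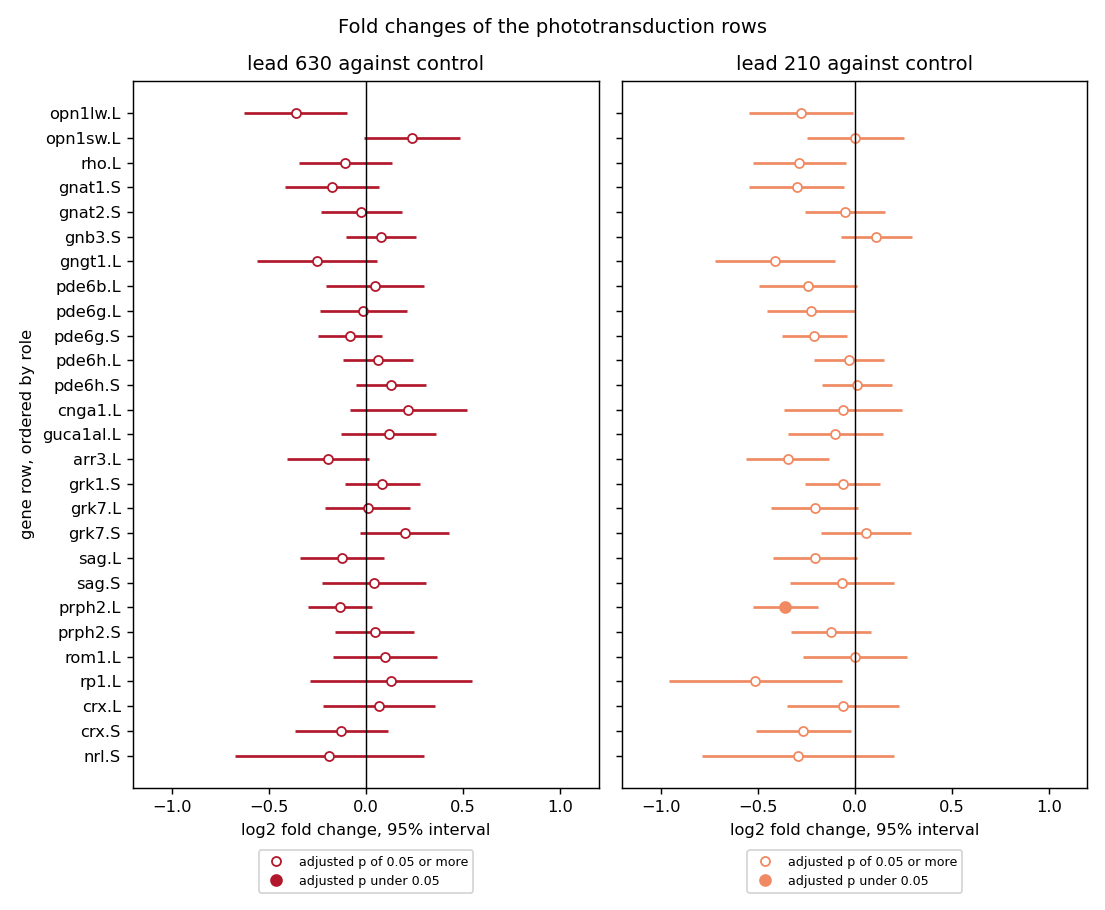
Log2 fold change against control of each phototransduction row (vertical, ordered by role) at lead 630 (left) and lead 210 (right); points are estimates, lines are 95% intervals and a filled point marks an adjusted p under 0.05. The estimates at lead 630 lie on both sides of 0 (15 positive, 12 negative), those at lead 210 mostly below it (23 of 27), and prph2.L at lead 210 is the filled point.

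The opsins came first in the chain. Rhodopsin, the rod pigment, was represented by rho.L (Entrez gene 380209). Its levels in libraries A to E were 502, 645, 574, 664 and 745 CPM at lead 630, 448, 580.2, 611, 564 and 558 CPM at lead 210, and 605, 656, 601, 648 and 859 CPM in controls. Control E was far above the other controls, lead 210 A was the lowest of all, and each lead group overlapped the controls. The estimated log2 fold change was -0.11 ± 0.11 (SE) at lead 630 (edgeR adjusted p = 0.783) and -0.29 ± 0.11 at lead 210 (0.283).

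The long-wave cone opsin, opn1lw.L (399310), gave the lowest p of all rows at lead 630. Its levels in libraries A to E were 84.0, 96.7, 88.2, 143 and 118 CPM at lead 630, 121, 94.5, 128, 107 and 111 CPM at lead 210, and 147, 123, 128, 129.5 and 153 CPM in controls. In each lead group 4 of 5 libraries lay below every control, and the exception was library D at lead 630 and library C at lead 210. Against control, the log2 fold change was -0.36 ± 0.13 at lead 630 (95% interval -0.63 to -0.10, edgeR adjusted p = 0.189) and -0.28 ± 0.13 at lead 210 (0.359). Without lead 630 D, the estimate at lead 630 was -0.49 and passed the threshold (edgeR adjusted p = 0.0130).

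The short-wave cone opsin, opn1sw.L (373655), lay on the other side. Its levels in libraries A to E were 91.3, 90.1, 94.8, 124 and 119.8 CPM at lead 630, 82.1, 88.0, 89.9, 80.1 and 102 CPM at lead 210, and 75.3, 77.8, 87.3, 85.6 and 115 CPM in controls. Lead 630 D and E were above all controls, the other 3 lead 630 libraries were above all controls except E, and the lead 210 libraries lay within the control range. The estimated log2 fold change was 0.24 ± 0.12 at lead 630 (interval -0.01 to 0.49, edgeR adjusted p = 0.422) and 0.0023 ± 0.12 at lead 210 (interval -0.25 to 0.25, edgeR adjusted p = 0.997).

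**Figure D3:**
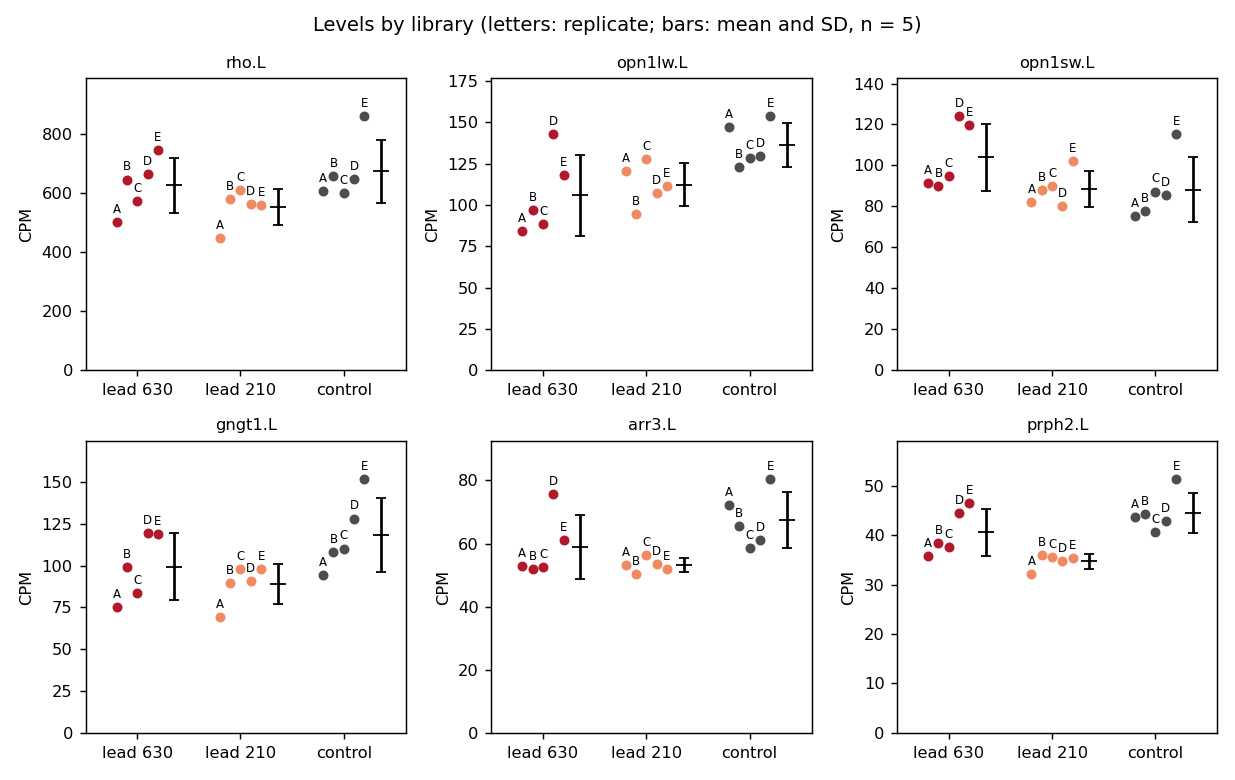
CPM (vertical axis from 0) in each library for rho.L, opn1lw.L, opn1sw.L, gngt1.L, arr3.L and prph2.L, by group on the horizontal axis; points are libraries with their replicate letter, and bars give the mean and SD (n = 5). For prph2.L all 5 lead 210 libraries (32.2 to 35.9 CPM) lie below all controls (40.7 to 51.3 CPM), and for arr3.L likewise; the other panels overlap.

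Read against each other within a library, the cone opsins separated lead 630 from control. The log2 ratio of opn1sw.L to opn1lw.L CPM in libraries A to E was 0.12, -0.10, 0.10, -0.21 and 0.02 at lead 630, -0.55, -0.10, -0.51, -0.42 and -0.12 at lead 210, and -0.96, -0.66, -0.56, -0.60 and -0.41 in controls. The mean was -0.01 ± 0.14 (SD, n = 5) at lead 630, -0.34 ± 0.21 at lead 210 and -0.64 ± 0.20 in controls. All 5 lead 630 libraries lay above all 5 controls, and lead 210 overlapped the controls. This pair was chosen after its values were seen. Its rows had the lowest (opn1lw.L, -0.36) and the highest (opn1sw.L, 0.24) log2 fold change of the 27 at lead 630. A large difference in their ratio follows from that choice, so no test is given. Among all 351 pairs of the 27 rows, the ratio at lead 630 did not overlap the controls in 32 (9.12%), of which 12 involved opn1lw.L, and the cone opsin pair had the largest difference of means. At lead 210 it did not overlap in 25 (7.12%), of which 1 involved opn1lw.L. Over all pairs of the 26983 genes tested with a count in every library, the shares were 3.78% at lead 630 and 4.21% at lead 210. Pairs that share a row are not independent, and no test of these shares was made. A swing between libraries that both rows of a pair share cancels in their ratio. Many of the 27 rows moved together in some libraries, though rod and cone rows did not always do so. Pairs of other genes need not share such swings, so these shares are not like for like. How far swings cancelled was not tested.

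**Figure D4:**
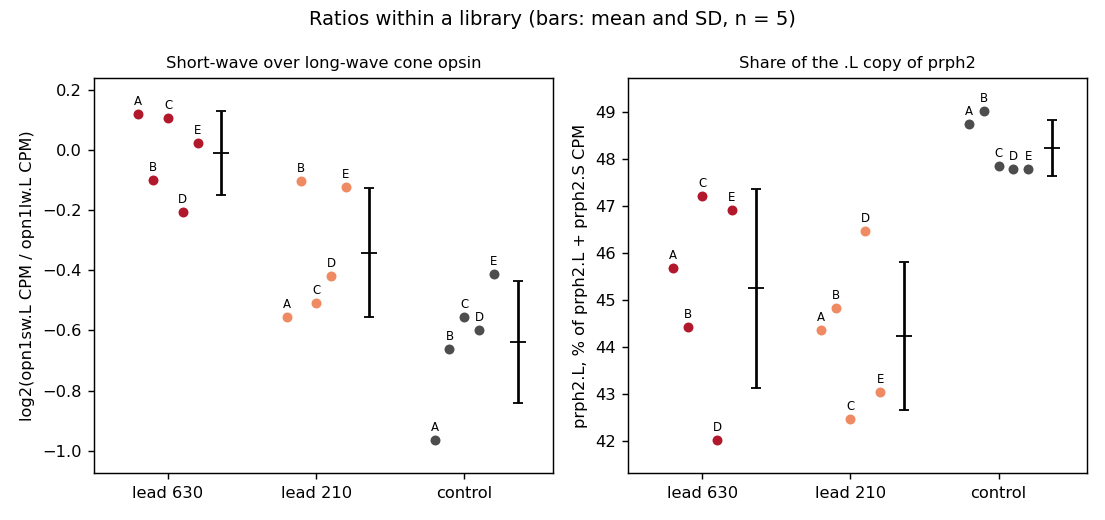
Log2 ratio of opn1sw.L to opn1lw.L CPM (left) and prph2.L as a percent of prph2.L and prph2.S CPM together (right), by group; points are libraries with their replicate letter, and bars give the mean and SD (n = 5). All lead 630 ratios (-0.21 to 0.12) lie above all control ratios (-0.96 to -0.41), and all 10 lead libraries have a smaller prph2.L share than any control.

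Transducin rows, which carry the signal from opsin to phosphodiesterase, had negative estimates in 3 of 4 rows at each lead level. In the fit with the group alone, the smallest edgeR adjusted p was 0.220. The rod alpha subunit gnat1.S (444825) had levels in libraries A to E of 102, 120.3, 105, 121 and 151 CPM at lead 630, 89.7, 113, 121, 109 and 118 CPM at lead 210, and 114, 129, 126, 140.3 and 169 CPM in controls. On the log2 scale the difference from control was -0.18 ± 0.12 at lead 630 (edgeR adjusted p = 0.590) and -0.30 ± 0.12 at lead 210 (0.265), and each lead group overlapped the controls. The rod gamma subunit gngt1.L (444698) had levels of 75.4, 99.1, 83.4, 119 and 119 CPM at lead 630, 69.1, 89.3, 97.7, 91.0 and 97.8 CPM at lead 210, and 94.3, 108, 110.2, 128 and 152 CPM in controls. Of the lead 210 libraries 3 lay below every control, and the log2 fold change there was -0.41 ± 0.15 (interval -0.72 to -0.10, edgeR adjusted p = 0.220). At lead 630 it was -0.25 ± 0.15 (edgeR adjusted p = 0.519). With the replicate letter as a block, gngt1.L (edgeR adjusted p = 0.00783) and gnat1.S (0.0296) passed the threshold at lead 210.

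The cone alpha subunit gnat2.S (444823) had levels in libraries A to E of 34.3, 41.7, 38.5, 55.0 and 46.9 CPM at lead 630, 42.0, 37.5, 47.7, 43.8 and 41.5 CPM at lead 210, and 43.4, 42.3, 46.6, 41.8 and 46.0 CPM in controls. The controls spanned a narrow range that lead 630 exceeded on both sides. Against control, the log2 fold change was -0.02 ± 0.10 at lead 630 (interval -0.23 to 0.18, edgeR adjusted p = 0.956) and -0.05 ± 0.10 at lead 210 (interval -0.26 to 0.16, edgeR adjusted p = 0.882). The cone beta subunit gnb3.S averaged 43.4 ± 5.22 CPM at lead 630, 44.4 ± 4.75 CPM at lead 210 and 41.2 ± 2.77 CPM in controls (SD, n = 5). It was the row with the highest estimate at lead 210, 0.11 ± 0.09 (edgeR adjusted p = 0.648).

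Phosphodiesterase rows, the enzyme that breaks down cyclic GMP, are taken next. The rod catalytic subunit pde6b.L (100381101) had levels in libraries A to E of 46.3, 58.1, 56.5, 69.6 and 76.0 CPM at lead 630, 41.4, 53.1, 53.7, 50.5 and 53.2 CPM at lead 210, and 49.9, 59.7, 56.6, 60.3 and 71.3 CPM in controls. Lead 210 A was below every other library, and 4 of 5 lead 630 libraries were above every lead 210 library. The estimated log2 fold change was 0.05 ± 0.12 at lead 630 (edgeR adjusted p = 0.927) and -0.24 ± 0.12 at lead 210 (0.417), and 0.29 ± 0.12 between lead 630 and lead 210 (0.932).

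The inhibitory gamma subunits of the rod enzyme, pde6g.L and pde6g.S, had log2 fold changes of -0.01 ± 0.11 and -0.08 ± 0.08 at lead 630, and -0.23 ± 0.11 and -0.21 ± 0.08 at lead 210. For pde6g.S, which averaged 58.0 ± 6.58 CPM at lead 630, 53.1 ± 4.56 CPM at lead 210 and 61.4 ± 3.99 CPM in controls, 4 of 5 lead 210 libraries lay below every control (edgeR adjusted p = 0.251). Their cone counterparts pde6h.L and pde6h.S had 0.06 ± 0.09 and 0.13 ± 0.09 at lead 630, and -0.03 ± 0.09 and 0.01 ± 0.09 at lead 210. The level of pde6h.L averaged 239.7 ± 35.2 CPM at lead 630, 225 ± 11.4 CPM at lead 210 and 229.9 ± 16.3 CPM in controls.

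For the channel and the cyclase step a row each was found. The rod channel subunit cnga1.L averaged 14.2 ± 3.00 CPM at lead 630, 11.7 ± 1.28 CPM at lead 210 and 12.3 ± 2.35 CPM in controls, with log2 fold changes of 0.22 ± 0.14 at lead 630 (edgeR adjusted p = 0.585) and -0.06 ± 0.15 at lead 210 (0.902). The row guca1al.L, listed by the authors as guca1a.L, belongs to the calcium-sensing activators of guanylate cyclase. It averaged 82.9 ± 17.9 CPM at lead 630, 71.4 ± 6.68 CPM at lead 210 and 76.6 ± 4.62 CPM in controls, with log2 fold changes of 0.12 ± 0.12 at lead 630 and -0.10 ± 0.12 at lead 210. For both rows the lead groups overlapped the controls.

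Among the rows that end the light response, cone arrestin had the lowest p at lead 210 and was not called. Arrestin binds the activated, phosphorylated opsin and blocks its access to transducin. Cone arrestin, arr3.L (398046), had levels in libraries A to E of 53.0, 52.0, 52.6, 75.7 and 61.2 CPM at lead 630, 53.3, 50.3, 56.3, 53.5 and 52.0 CPM at lead 210, and 72.1, 65.6, 58.6, 61.0 and 80.4 CPM in controls. All 5 lead 210 libraries lay below all 5 controls, and 3 of 5 lead 630 libraries did. Against control, the log2 fold change was -0.35 ± 0.10 at lead 210 (interval -0.56 to -0.13), which missed the threshold (edgeR adjusted p = 0.104). At lead 630 it was -0.20 ± 0.10 (edgeR adjusted p = 0.439). The row passed at lead 210 when lead 630 D was left out (edgeR adjusted p = 0.0260) and when the fit held only lead 210 and control (0.0408). Every other setting and left-out library left it uncalled. Groups that did not overlap were seen for 2 of 27 rows at lead 210, arr3.L and prph2.L (7.41%, against 4.01% of all genes), and for 0 of 27 at lead 630 (against 3.85%). With so few rows, 2 of 27 is near the background.

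Rod arrestin had both copies. The levels of sag.L (398109) in libraries A to E were 162, 192, 176, 199 and 215 CPM at lead 630, 146, 179, 190.5, 184 and 192 CPM at lead 210, and 173, 189, 195, 219.5 and 252 CPM in controls. Those of sag.S (447588) were 80.5, 89.9, 85.2, 86.1 and 120.1 CPM at lead 630, 68.1, 89.3, 84.6, 87.0 and 100.1 CPM at lead 210, and 70.4, 90.8, 82.2, 96.0 and 109.8 CPM in controls. All groups overlapped. The log2 fold changes were -0.12 ± 0.10 for sag.L and 0.04 ± 0.13 for sag.S at lead 630, and -0.21 ± 0.10 and -0.07 ± 0.13 at lead 210, with edgeR adjusted p from 0.411 to 0.936.

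Opsin kinases phosphorylate light-activated opsin, grk1 mainly in rods and grk7 in cones. At lead 630 the log2 fold changes were 0.08 ± 0.09 for grk1.S, 0.01 ± 0.11 for grk7.L and 0.20 ± 0.11 for grk7.S. At lead 210 they were -0.06 ± 0.09, -0.21 ± 0.11 and 0.06 ± 0.11 in the same order. The copies of grk7 averaged 9.35 ± 0.748 CPM (.L) and 12.8 ± 1.75 CPM (.S) at lead 630, 8.06 ± 1.18 and 11.6 ± 1.32 CPM at lead 210, and 9.32 ± 0.734 and 11.1 ± 1.21 CPM in controls. Of the lead 210 libraries 4 were below every control for grk7.L, and 0 were for grk7.S.

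The called row encodes a structural protein of the outer segment. Peripherin-2, the product of prph2, shapes the rims of the membrane discs in which rods and cones hold their opsin. The levels of prph2.L (379506) in libraries A to E were 35.8, 38.3, 37.5, 44.4 and 46.6 CPM at lead 630, 32.2, 35.9, 35.5, 34.7 and 35.3 CPM at lead 210, and 43.6, 44.2, 40.7, 42.8 and 51.3 CPM in controls. All 5 lead 210 libraries lay below all 5 controls, and 3 of 5 lead 630 libraries did. The mean was 40.5 ± 4.70 CPM at lead 630, 34.7 ± 1.49 CPM at lead 210 and 44.5 ± 4.02 CPM in controls (SD, n = 5). At lead 210 the log2 fold change was -0.36 ± 0.08 (interval -0.52 to -0.19, edgeR adjusted p = 0.0196), a fold of 0.780. At lead 630 it was -0.13 ± 0.08 (interval -0.30 to 0.03, edgeR adjusted p = 0.530).

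Between lead 630 and lead 210 the log2 difference of prph2.L was 0.23 ± 0.08, which did not pass (edgeR adjusted p = 0.932). The call at lead 210 was lost without control E (adjusted p = 0.0618) or without lead 210 A (0.0787), each time with a negative estimate (-0.30 and -0.34). Per the authors' deposited table, prph2.L was the 1 row of 27 under an adjusted p of 0.05 at lead 210 (log2 fold change -0.36, adjusted p = 0.0186). At lead 630 that deposited table of the authors held 0 of 27, and opn1lw.L was lowest (adjusted p = 0.164). Of all 28950 genes in the authors' comparisons, 690 were under 0.05 at lead 210 and 764 at lead 630. Those comparisons were made on the same libraries, so they are not a separate result.

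The other copy, prph2.S (398002), had estimates nearer to 0. It averaged 49.3 ± 8.02 CPM at lead 630, 43.9 ± 3.68 CPM at lead 210 and 47.8 ± 4.71 CPM in controls. Its log2 fold change was 0.05 ± 0.10 at lead 630 (edgeR adjusted p = 0.906) and -0.12 ± 0.10 at lead 210 (0.648). With both copies summed, prph2 was not called at lead 210 (log2 fold change -0.24, edgeR adjusted p = 0.217).

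Within each library, prph2.L made up a smaller share of the pair under lead. The share of prph2.L in libraries A to E was 45.7%, 44.4%, 47.2%, 42.0% and 46.9% at lead 630, 44.4%, 44.8%, 42.5%, 46.5% and 43.0% at lead 210, and 48.8%, 49.0%, 47.9%, 47.8% and 47.8% in controls. All 10 lead libraries lay below all 5 controls. The share at lead 210 uses the same prph2.L values that gave the call, so it is not a separate result. Of 21 homeolog pairs of the phototransduction symbols, prph2 was the 1 pair whose share did not overlap the controls, at each lead level. Over 7076 homeolog pairs of all genes the share did not overlap in 2.23% at lead 630 and 2.52% at lead 210, so 1 of 21 is near the background.

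Other structural rows varied more. The disc-rim protein rom1.L averaged 66.7 ± 13.6 CPM at lead 630, 62.4 ± 9.42 CPM at lead 210 and 62.4 ± 5.88 CPM in controls, with log2 fold changes of 0.10 ± 0.13 at lead 630 and -0.00014 ± 0.13 at lead 210. The microtubule-associated protein of the outer segment axoneme, rp1.L (447052), was near 1 CPM, with 12 to 46 reads per library. Its levels in libraries A to E were 1.10, 1.66, 1.68, 1.45 and 1.90 CPM at lead 630, 0.870, 1.17, 1.33, 0.772 and 0.995 CPM at lead 210, and 1.43, 1.21, 1.41, 1.54 and 1.66 CPM in controls. Of the lead 210 libraries 4 lay below every control, and 4 lead 630 libraries lay above every lead 210 library. For rp1.L the log2 fold change was 0.13 ± 0.20 at lead 630 (edgeR adjusted p = 0.861), -0.51 ± 0.21 at lead 210 (0.298) and 0.64 ± 0.21 between lead 630 and lead 210 (0.932).

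The transcription factors of photoreceptors were not called. Crx is a homeobox protein that drives photoreceptor genes. The levels of crx.L (398118) in libraries A to E were 36.4, 41.4, 39.8, 57.6 and 52.3 CPM at lead 630, 38.2, 36.3, 44.7, 43.2 and 46.4 CPM at lead 210, and 33.6, 39.7, 41.1, 49.7 and 53.9 CPM in controls. Those of crx.S (373653) were 23.1, 31.6, 26.4, 30.9 and 36.0 CPM at lead 630, 23.7, 23.5, 29.6, 28.7 and 29.3 CPM at lead 210, and 35.4, 27.8, 28.7, 32.4 and 37.9 CPM in controls. All groups overlapped, and control A held the lowest control value for crx.L and the second highest for crx.S.

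For crx.L the log2 fold change was 0.07 ± 0.14 at lead 630 (edgeR adjusted p = 0.903) and -0.06 ± 0.14 at lead 210 (0.900). For crx.S it was -0.13 ± 0.11 (0.723) and -0.27 ± 0.12 (0.333). The authors' table carries these symbols the other way round, with crx.L for the row named crx.S here. Nrl, which directs rod fate in mice, was measured as nrl.S at 7.90 ± 1.35 CPM at lead 630, 7.31 ± 2.72 CPM at lead 210 and 8.90 ± 1.54 CPM in controls. Its SEs were the widest of the 27 rows against control (0.23 at each lead level), and lead 210 E had 2.72 CPM, the lowest of its 15 values. The copy nrl.L was also lowest in that library (3.71 CPM), as was the lens sum (237 CPM). The median of the rod rows there was -0.03, so nrl.S did not follow the rod rows in that library, though it was classed as rod. The tissue in which nrl was expressed was not tested.

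Rod and cone rows did not always move together between libraries. The median of the 12 rod rows, relative to the row means, averaged 0.02 ± 0.19 at lead 630, -0.11 ± 0.15 at lead 210 and 0.08 ± 0.15 in controls (SD over 5 libraries). For the 9 cone rows the figures were 0.05 ± 0.17, -0.05 ± 0.11 and 0.0051 ± 0.080 in the same order. In lead 210 A the rod rows were at -0.38 and the cone rows at -0.05, and in control E at 0.32 and 0.12. In lead 630 D the order was the other way, with rod rows at 0.16 and cone rows at 0.32. The spread of the 27 rows within groups had a median SD of 0.20 on the log2 scale, beside 0.19 for all genes at levels within the range of these rows.

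**Figure D5:**
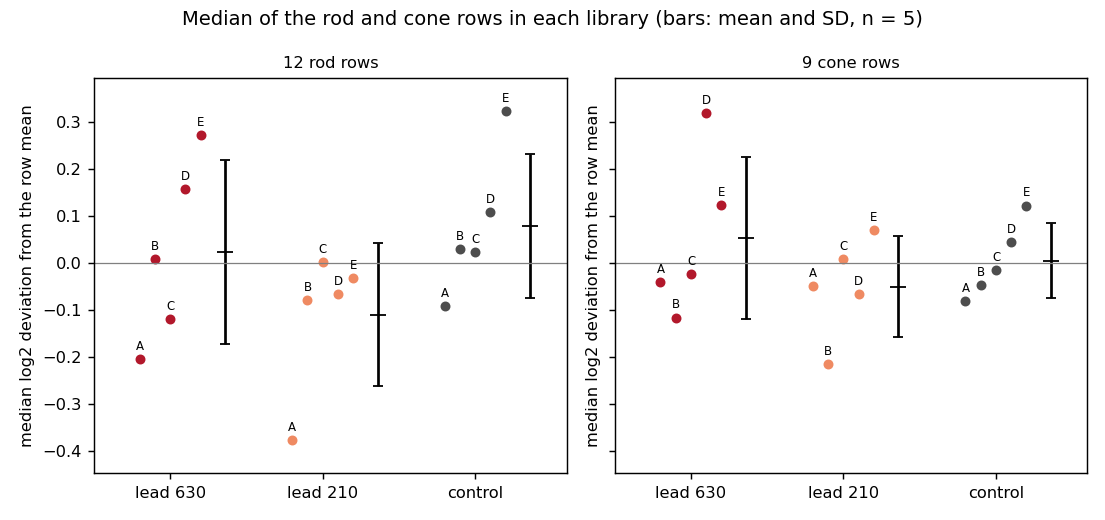
Median log2 difference from the row mean of the 12 rod rows (left) and the 9 cone rows (right) in each library, by group; points are libraries with their replicate letter, and bars give the mean and SD (n = 5). Lead 210 A is the lowest rod value (-0.38), control E the highest rod value (0.32) and lead 630 D the highest cone value (0.32).

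A further 27 rows carried one of the 38 symbols only in the RefSeq gene table, and 10 of them shared a listed symbol with a row above. Most were the other copy of that row. The exceptions were guca1a.L and guca1a.S, which RefSeq names apart from guca1al.L. The setting with homeologs summed joined them with guca1al.L as guca1a. With them, 54 rows for 32 symbols were found, and 6 symbols (opn1mw4, gngt2, guca1b, rcvrn, slc24a1 and slc24a2) matched no row under that exact symbol in either source. In this second set 0 of 27 rows were called with edgeR at lead 630 (against 2.28% of all genes) and 0 of 27 at lead 210 (against 1.9%). An unadjusted p under 0.05 was found for 1 row at lead 630 (3.70%) and 6 at lead 210 (22.2%), against 12.9% of all genes at each level. DESeq2 called 0 at either level. The median log2 fold change was 0.0046 at lead 630 and -0.14 at lead 210, where 23 of 27 were negative.

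The rod copies in that set whose partner met the rule lay on the same side as that partner at lead 210. Of these, nrl.L (-0.00029) was near 0, as was rom1.L (-0.00014), the partner of rom1.S. Both copies of nr2e3, classed as rod, were in that set and lay on opposite sides. At lead 210 nr2e3.L had 0.10 ± 0.18 (edgeR adjusted p = 0.874) and nr2e3.S had -0.70 ± 0.36 (0.419). Copies were measured in the same pools, and reads may be shared between them. The log2 fold changes were -0.45 ± 0.18 for rho.S (edgeR adjusted p = 0.298), -0.24 ± 0.11 for gnat1.L (0.350) and -0.34 ± 0.16 for gngt1.S (0.376). These 3 and the rows that follow were chosen after their values were seen. The cone channel subunit cnga3.L had 0.37 ± 0.16 at lead 630 (edgeR adjusted p = 0.302) and -0.15 ± 0.16 at lead 210 (0.760). Its partner cnga3.S had -0.40 ± 0.14 at lead 210 (edgeR adjusted p = 0.203), with all lead 210 libraries below all controls, and 0.04 ± 0.14 at lead 630 (0.942). A second row of these 27 without overlap at lead 210 was gucy2d.L, a guanylate cyclase, at -0.27 ± 0.12 (edgeR adjusted p = 0.320). Of all genes tested, 4.01% did not overlap at lead 210.

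A rhodopsin row outside the rule, rho.2.L in the RefSeq table, had more counts than rho.L. It averaged 935 ± 131 CPM at lead 630, 865 ± 104 CPM at lead 210 and 967 ± 129.9 CPM in controls. The estimated log2 fold change was -0.05 ± 0.11 at lead 630 (edgeR adjusted p = 0.916) and -0.16 ± 0.11 at lead 210 (0.585). Summed with rho.L and rho.S, rhodopsin came to 1792 ± 228 CPM at lead 630, 1620.1 ± 181 CPM at lead 210 and 1917 ± 297 CPM in controls, and the groups overlapped. Recoverin, a calcium-binding inhibitor of opsin kinase, also had rows outside the rule under the names rcvrn.2.L and rcvrn.2.S, which are named here after their values were seen. The first averaged 28.6 ± 2.94 CPM at lead 630, 25.5 ± 2.67 CPM at lead 210 and 30.2 ± 3.43 CPM in controls, with log2 fold changes of -0.07 ± 0.09 at lead 630 (edgeR adjusted p = 0.823) and -0.24 ± 0.09 at lead 210 (0.262). For rcvrn.2.S the fold changes were -0.04 ± 0.16 (0.949) and -0.14 ± 0.16 (0.763).

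Lists of genes used by other cells of the eye were compared in the same fit. In RNA of whole embryos, the tissue in which a listed row was expressed cannot be told. Of all genes tested, edgeR called 1.98% higher and 0.303% lower at lead 630, and 1.76% higher and 0.144% lower at lead 210. DESeq2, run on all 37018 rows, called 895 genes at lead 630 and 776 at lead 210, counting both directions. Among 41 tested rows of other photoreceptor genes, 1 rose at each lead level and 0 fell: reep6.L, a membrane-shaping protein of rods in mice, at 0.39 ± 0.08 (edgeR adjusted p = 0.0145) at lead 630 and 0.38 ± 0.08 (0.0199) at lead 210. The medians of that list were 0.03 and -0.10. Visual cycle and pigment epithelium genes, which regenerate the chromophore, had 4 of 24 tested rows lower and 0 higher at lead 630. They were the retinol dehydrogenase rows rdh5.S (-0.89 ± 0.16, edgeR adjusted p = 0.00227) and rdh5.L (-0.82 ± 0.15), the opsin relative rgr.S (-0.66 ± 0.12) and the isomerase rpe65.L (-0.60 ± 0.12), and DESeq2 called 6 lower. At lead 210, 1 of 24 was lower and 0 higher, rgr.S (-0.50 ± 0.12, edgeR adjusted p = 0.0353), and DESeq2 called 4 lower.

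Summed, the visual cycle list lay at 536 to 681 CPM at lead 630, 573 to 665 CPM at lead 210 and 618 to 717 CPM in controls. Of 40 tested rows of other retinal neurons and Mueller glia, 2 were lower at lead 630, sox9.S (-0.33 ± 0.08) and sox9.L (-0.39 ± 0.10). At lead 210 0 of these rows were called, and 7 of 40 had an unadjusted p under 0.05 (against 12.9% of all genes). Among 19 lens rows 0 were called at either level with edgeR, and 0 had an unadjusted p under 0.05. Among 11 rows of pineal and non-visual opsins 0 were called at either level. At lead 630, 3 of 11 had an unadjusted p under 0.05 (against 12.9% of all genes). DESeq2 called 0 rows of these last lists where edgeR called 0. The lens medians were -0.34 at lead 630 and -0.14 at lead 210, with 17 of 19 rows negative at each level. The part of these lists in the values of the phototransduction rows was not tested.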

How the data were processed

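RNA of 15 pooled whole-embryo samples was measured by poly(A) RNA-seq with a directional kit, per the labels' protocols. The authors deposited raw counts per Entrez gene (37018 rows), and 2 tables of their own comparisons with log2 fold changes, log2 mean CPM, a likelihood-ratio score and p-values. The submitters' processing notes name HISAT2, kallisto, Trim Galore and edgeR but no versions. What build, counter and strand setting were used is not given in the sources used here, so no coordinates are printed. A directional kit counted without strand would mix antisense reads in.

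Counts were filtered by group (filterByExpr) and fitted with edgeR 4.0.16 in R 4.3.3: TMM normalization (factors 0.977 to 1.03), 1 robust quasi-likelihood fit over all 15 libraries with the group as its term, and Benjamini-Hochberg adjustment over 27060 genes, called under 0.05. The biological coefficient of variation was 0.142. SEs are Wald errors scaled by the moderated quasi-dispersion, with 95% t intervals. The test was also run on counts simulated from the fit's own means and dispersions. That simulation held no quasi-likelihood spread, so it cannot vouch for the intervals or calls on these data. CPM used TMM-scaled sizes, and log2 CPM a prior count of 2. Counting floors of 3 counts cover counting error only.

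Printed symbols follow RefSeq's gene table (assembly Xenopus_laevis_v10.1), which named 33597 of 37018 identifiers; 9 of 27 rows carry another symbol in the authors' table. Values in all 15 libraries are given for called rows, opsins, transducin alpha subunits, arrestins, crx and the 3 rows of lowest p in each comparison. The members and lists were chosen with earlier results of these data known. Part of the visual cycle list is not reported here. A chi-square per gene of 3.70 to 28.5 over 105 library pairs showed no duplicates. Alternatives were RLE size factors, library totals alone, 2 other filters, DESeq2 1.42.0, a fit on the 2 groups compared, summed homeologs, a block for the replicate letter, leaving out each library, and, chosen after seeing the data, membership by either symbol.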

Additional observations from a re-analysis of the deposited data

Results flagged for a closer look

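Single libraries far from the other 4 of their group were found in 12 of 204 groups of values examined (5.88%), and chance alone flags about 1 in 20. Among the phototransduction rows, lead 210 A was far below its group for sag.L (145.75 CPM, others 178.68 to 191.84) and pde6b.L (41.385 CPM, others 50.483 to 53.745), and for the median of the rod rows (-0.37649 relative to the row means, others -0.078362 to 0.0026391). Control E was far above the other controls for rho.L (858.65 CPM, others 600.74 to 656.18) and prph2.S (56.073 CPM, others 44.318 to 46.786). Lead 630 E was far above its group for sag.S (120.08 CPM, others 80.519 to 89.94).

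Among rows found only by the RefSeq symbol, lead 630 C was low for cnga3.L (3.813 CPM, others 4.9409 to 5.2008), and lead 630 A for grk1.L (12.718 CPM, others 14.581 to 15.114). At lead 210, library A was low for gucy2f.L (15.945 CPM, others 19.436 to 20.811), and library C was high for gucy2d.S (27.13 CPM, others 22.251 to 23.265) and pdc.L (10.1 CPM, others 7.8938 to 8.2245). The visual cycle and pigment epithelium list summed to 617.97 CPM in control B, below the other controls (693.54 to 717.01 CPM).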

How the results depend on the processing

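At lead 210 the number of phototransduction rows called was 1, and it changed under 3 settings and 3 left-out libraries. It was 2 with only lead 210 and control in the fit (prph2.L and arr3.L) and 0 with homeologs summed; leaving out each library in turn gave 0 to 2 (0 without control E or lead 210 A, 2 without lead 630 D). At lead 630 the count was 0 under every other setting listed, and leaving out each library gave 0 to 1, the 1 being opn1lw.L without lead 630 D. The median at lead 210 stayed negative, from -0.23 to -0.12 over left-out libraries. All genes called at lead 210 numbered 515, and 776 with DESeq2. Between the lead levels 0 genes were called, 6 with DESeq2 and 0 to 1 over left-out libraries. Of 924 recomputed values of the 14 rows given by library, 917 kept their call and direction or stayed uncalled, 2 lost a call and 5 gained one; in 24 the sign differed with neither value called.

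With the replicate letter as a block, 3 rows were called at lead 210: prph2.L (-0.36, edgeR adjusted p = 0.00624), gngt1.L (-0.40, 0.00783) and gnat1.S (-0.29, 0.0296). All genes called were 748 at lead 630 and 691 at lead 210 under the block, beside 617 and 515 without it. The labels do not say what a letter marks. Of 15 same-letter pairs of libraries, 8 correlated over 0.1 (range -0.12 to 0.31), among them all pairs of letter A (0.16 to 0.29) and of letter E (0.12 to 0.29); 11 of 30 best matches shared a letter. A smaller share of the pairs with different letters correlated over 0.1 (range -0.37 to 0.32). Each best match was sought among the 5 libraries of another group. These correlations alone cannot settle whether the letters pair the libraries. The main fit left the letter out, and the calls under the block are given beside it. Calls lost or gained under the block do not rank the effects.

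The precision was limited by 5 pools a group and by rows such as rp1.L, with 12 to 46 reads.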
